A study of Mus musculus with 6 samples.

Results

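The mitochondrial protein import machinery was followed in muscle stem cells, which repair skeletal muscle, after deletion of Opa1. Its 39 members were taken by gene symbol: every protein-coding gene named Timm or Tomm with a number, plus Timmdc1 and 13 genes of the import motor, the processing peptidases and the disulfide relay, out of 49652 gene rows. The KO group (Cre-positive, n = 3 libraries) was set against the WT group (Cre-negative, n = 3 libraries). Both groups came from the OPA1-Pax7-CreERT2 design, in which Pax7 drives a tamoxifen-dependent Cre, so Cre and the Opa1 deletion come together in KO and no Cre-positive library without the deletion was analysed. Mice of 8 to 10 weeks in both groups were gavaged with tamoxifen on 5 days, and cells were collected 3 days later from uninjured hindlimb muscle. The sort was positive for alpha-7 integrin and VCAM and negative for Sca1, CD45 and CD31. The number of animals behind each library is not stated in the labels. The p-values therefore measure only the spread between these libraries, whatever number of animals stands behind it.

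Nearly all mitochondrial proteins are made in the cytosol and carried through the TOM complex of the outer membrane. Precursors with an N-terminal presequence then pass the TIM23 channel and are pulled into the matrix by a motor around the HSP70 chaperone mortalin, where peptidases remove the presequence. Metabolite carriers take another road, over the small TIM chaperones to the TIM22 translocase, and small cysteine-rich proteins are trapped in the intermembrane space by a disulfide relay. OPA1, the GTPase that fuses the inner membrane and shapes its cristae, is itself a client: its precursor is imported through TOM and TIM23 and loses its presequence in the matrix. The system serves cells of every kind, and mitochondria of quiescent muscle stem cells depend on it as others do.

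Libraries held 41410136 to 56606886 gene counts, and single tested members had 354 to 24962 counts. Opa1 stood at 17.5, 34.4 and 27.1 CPM in KO and at 68.2, 31.4 and 68.8 CPM in WT. The library labelled WT replicate 2 thus had an Opa1 level inside the KO range, and it is named that way because this goes against its label. Opa1 had a log2 fold change of -1.09 (SE 0.37, unadjusted p 0.0215, adjusted p 1, edgeR), and with 1 library left out it lay between -1.38 without the library labelled WT replicate 2 and -0.87 without KO replicate 1. The unadjusted p was above 0.05 without KO replicate 1 (0.0611), KO replicate 3 (0.0551), WT replicate 1 (0.0662) or WT replicate 3 (0.0687), and with a replicate block (0.0616). Which exons were deleted is not given in the labels, and reads of remaining exons are part of these values. The 9 satellite cell markers summed to 4138 to 4535 CPM in KO and 4378 to 5154 CPM in WT. Their log2 fold changes were positive for 3 (Cdh15 0.20, Pax7 0.16 and Itga7 0.14) and negative for 6, with a median of -0.11. Of the 9, Calcr, the calcitonin receptor of quiescent satellite cells, was at 178, 165 and 228 CPM in KO and 273, 229 and 349 CPM in WT (log2 fold change -0.58, unadjusted p 0.0244, edgeR), and Chrdl2 was at 144, 178 and 137 CPM in KO and 295, 137 and 479 CPM in WT (-0.99, unadjusted p 0.0475). Both have an adjusted p of 1, and 1% of all genes were lower in KO at an unadjusted p under 0.05. Of the markers sorted against, Ptprc (CD45) was at 0 to 0.651 CPM in KO and 0 to 0.337 CPM in WT, Pecam1 (CD31) at 4.36, 7.6 and 22.5 CPM in KO and 21, 17.4 and 5.76 CPM in WT, and Ly6a (Sca1) at 4.86, 7.23 and 19.2 CPM in KO and 13.6, 13.5 and 4.62 CPM in WT. Cell cycle genes divided the libraries within each genotype: the 26 listed genes summed to 1793, 409 and 391 CPM in KO and to 947, 385 and 850 CPM in WT. Ddx3y, a Y-linked gene, was at 0.141, 22.9 and 90.2 CPM in KO and 0.0354, 226 and 23.3 CPM in WT. Xist, expressed from the inactive X of females, was at 401, 393 and 244 CPM in KO and 355, 0.0209 and 508 CPM in WT. Ddx3y stood without Xist in the library labelled WT replicate 2, KO replicate 1 and WT replicate 1 had the reverse, and the other 3 libraries had both, so libraries of 1 genotype were not all drawn from the same pool of cells.

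No gene of the import machinery passed the test between KO and WT cells, and every estimated difference was small. Of the 39 members, 37 had enough counts to be tested, and Tomm20l and Timm8a2 did not. By edgeR's quasi-likelihood test, 0 of the 37 were called at an adjusted p under 0.05 (0% of all 18832 genes tested were called), 0 had an unadjusted p under 0.05 (2.09% of all genes), and DESeq2 (0.0747% of all genes called) and limma voom called 0 members too. Log2 fold changes ran from -0.26 for Tomm5 to 0.17 for Tomm40, with 11 positive and 26 negative, where 51% of all genes were positive and 49% negative. Their median was -0.08, against 0.01 over all genes tested.

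These fold changes had a median SE of 0.19 (edgeR), with the library labelled WT replicate 2 counted as WT. The 95% intervals of all 37 tested members lay between -0.98 and 0.86 on the log2 scale, so a 2-fold change of any of them in either direction is outside its interval. For 21 of the 37, a change of 1.5-fold is outside it as well. The median coefficient of variation of the members was 16.5% among KO libraries and 12.8% among WT libraries, against 25.6% and 27.1% for all genes tested in KO and WT. The members also stood at higher levels, with a mean log2 CPM of 5.72 to 6.08 per library against 2.83 to 2.96 for all genes tested. Spread was not compared at equal level. A p that misses the threshold does not show equal levels; smaller differences stay within these intervals.

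**Figure D1:**
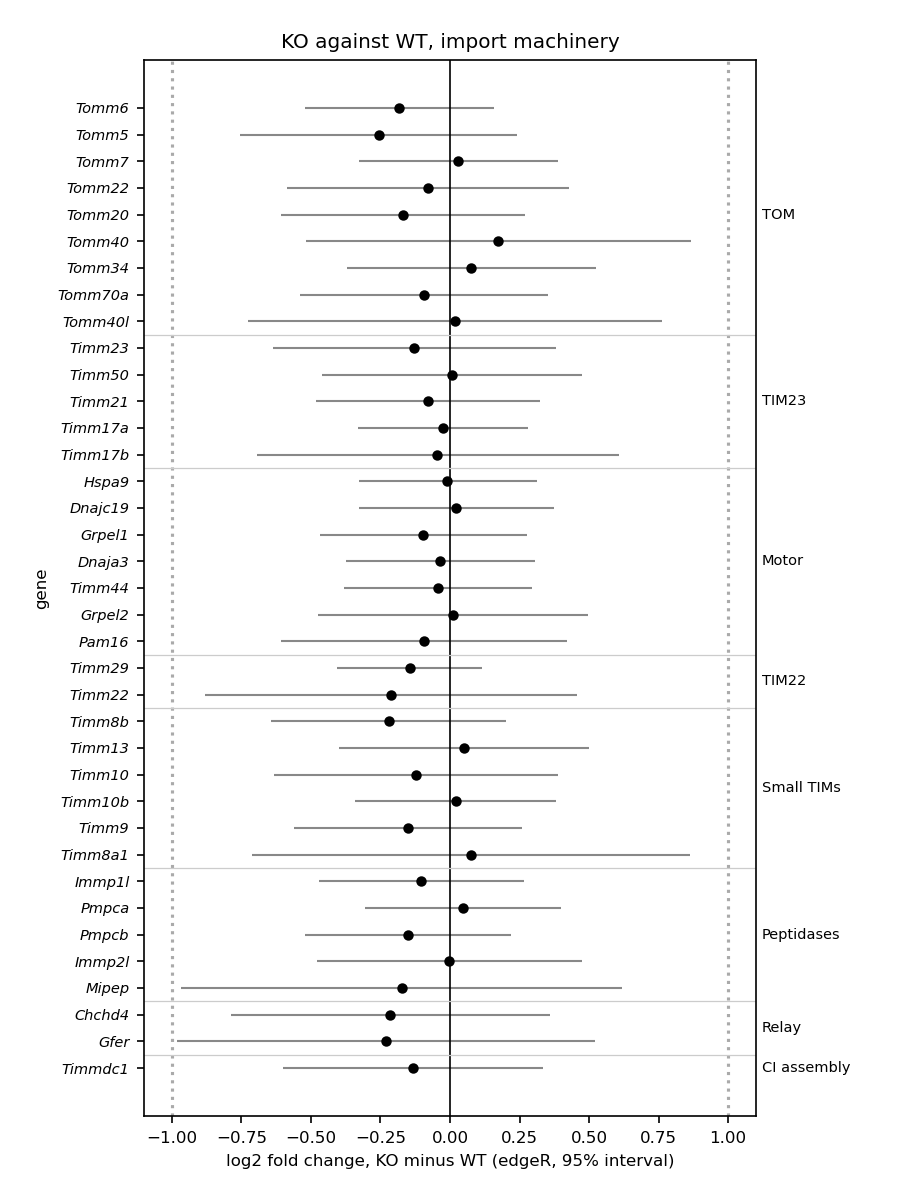
Log2 fold change of each of the 37 tested import genes, KO minus WT, with its 95% interval from edgeR, grouped by role; the dotted lines mark a 2-fold change. All intervals cross 0 and all stay between the dotted lines.

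The promoters of 34 members were available from RefSeq (GRCm38.p6, 250 bases before to 50 after the start), and 3 are shown: Timm29, the only member whose genotypes do not overlap, and the receptors Tomm22 and Tomm20, whose windows differ in the letters they carry. Capitals mark matches on either strand to CCGGAAG, the core bound by ETS factors such as GABPA, to the palindromic motif of NRF-1 and to CACGTG, the E-box. GABPA and NRF-1 are known regulators of nuclear genes for mitochondrial proteins. The window of Timm29 lies at chr9:21592472-21592771 on the plus strand, that of Tomm22 at chr15:79670618-79670917 on the plus strand and that of Tomm20 at chr8:126945872-126946171 on the minus strand.
Timm29: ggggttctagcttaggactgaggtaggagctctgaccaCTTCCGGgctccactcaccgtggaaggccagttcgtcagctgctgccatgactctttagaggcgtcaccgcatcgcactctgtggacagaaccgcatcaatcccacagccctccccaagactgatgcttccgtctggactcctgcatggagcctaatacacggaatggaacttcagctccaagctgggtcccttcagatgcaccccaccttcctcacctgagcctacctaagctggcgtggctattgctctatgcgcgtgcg
Tomm22: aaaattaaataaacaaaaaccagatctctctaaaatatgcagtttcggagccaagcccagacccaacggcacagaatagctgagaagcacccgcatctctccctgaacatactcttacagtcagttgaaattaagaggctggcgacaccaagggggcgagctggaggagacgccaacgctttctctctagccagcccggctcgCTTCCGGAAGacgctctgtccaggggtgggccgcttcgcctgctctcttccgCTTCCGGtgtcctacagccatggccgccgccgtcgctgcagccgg
Tomm20: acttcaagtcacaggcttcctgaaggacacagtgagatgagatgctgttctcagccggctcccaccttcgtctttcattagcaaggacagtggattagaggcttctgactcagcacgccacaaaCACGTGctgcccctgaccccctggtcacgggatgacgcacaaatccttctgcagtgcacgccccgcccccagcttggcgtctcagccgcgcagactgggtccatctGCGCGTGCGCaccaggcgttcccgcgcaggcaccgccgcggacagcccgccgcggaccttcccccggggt
CCGGAAG was found in 14 of the 34 members (41.2%), against 19.2% of 10528 tested protein-coding genes with a window and 9.93% of all 27025 genes with one. The NRF-1 motif was found in 5 members (14.7%, against 11% of tested protein-coding genes), CACGTG in 5 (14.7% against 11.4%) and the YY1 motif in 2 (5.88% against 1.69%). The members counted here include Timm8a2, with CCGGAAG, and Tomm20l, with CACGTG, which were not tested, so the sets compared are not quite alike. Timm29 has 1 match to CCGGAAG, Tomm22 has 3, and Tomm20 has none but carries an NRF-1 and an E-box match. The stretch CTTCCGGAAG of Tomm22 holds overlapping matches on both strands, each counted. These matches describe letters in a window and not bound sites.

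**Figure D2:**
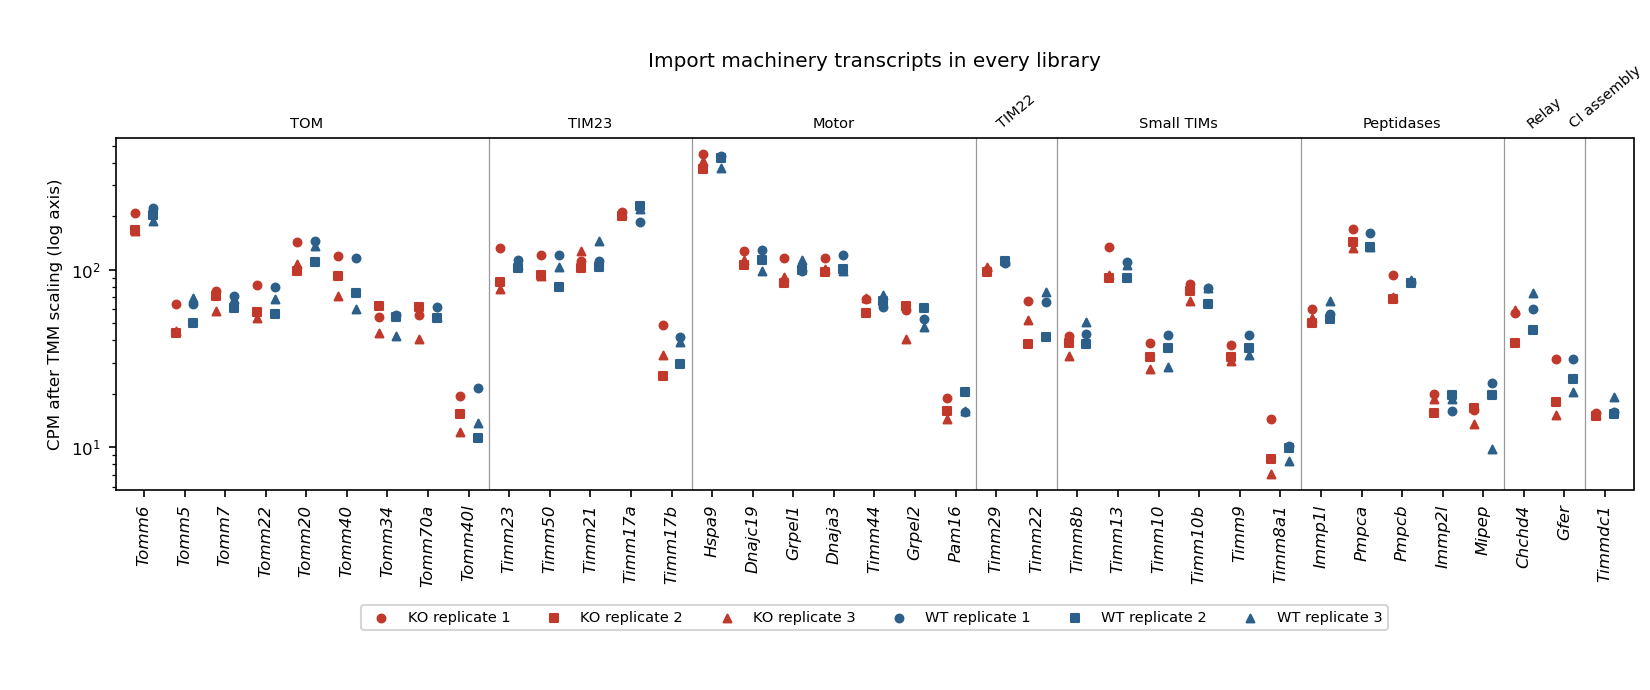
Normalised read counts (CPM after TMM scaling, log axis) of the 37 tested import genes in each of the 3 KO libraries (red, left) and 3 WT libraries (blue, right), grouped by role. For every gene but Timm29 the ranges of KO and WT overlap.

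The TOM complex holds the outer membrane channel Tomm40, the presequence receptors Tomm20 and Tomm22, the receptor Tomm70a for carrier precursors and the small subunits Tomm5, Tomm6 and Tomm7. Tomm6 (chr17:47686646-47688386, minus strand, GRCm38) was the most abundant member per exon length, at 160 ± 21.5 RPKM in KO and 181 ± 15.3 RPKM in WT (SD, n = 3 each). Its single libraries had 209, 168 and 166 CPM in KO and 223, 205 and 188 CPM in WT. The WT libraries tended to lie higher, but KO replicate 1 lay within their range (log2 fold change -0.18, SE 0.14, unadjusted p 0.248 by edgeR). Tomm6 shares 859 of its 1131 exon bases with Gm21981 on the same strand. No gene row carried that name, so whether reads from those bases are missing from the count of Tomm6 is not known.

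Tomm20 had 143, 98.4 and 108 CPM in KO and 146, 111 and 136 CPM in WT (log2 fold change -0.17). Its count is uncertain, since 435 bases are 99.5% identical to the pseudogene Gm14494. Tomm22 had 82.1, 57.7 and 53.9 CPM in KO and 79.6, 56.7 and 68.5 CPM in WT (-0.08). For both receptors KO replicate 1 was about as high as WT replicate 1, the library labelled WT replicate 2 was the lowest WT library, and the ranges overlapped. Tomm40 had 120, 92.2 and 71.5 CPM in KO and 117, 74.4 and 60.0 CPM in WT. Its log2 fold change of 0.17 (SE 0.29) was the highest of the 37, but replicate 1 was the highest library in both genotypes and the ranges overlapped widely. Without WT replicate 1 the value was 0.49 and without KO replicate 1 it was -0.03. The 9 tested genes grouped with the TOM complex include Tomm34, a cytosolic cochaperone (0.08). Of these 9, 4 were positive and 5 negative, with a median of -0.08.

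The minor paralogs of the TOM complex were scarce. Tomm40l, a channel paralog, had 19.4, 15.4 and 12.2 CPM in KO and 21.5, 11.3 and 13.7 CPM in WT, and per exon length Tomm40 stood 5 to 7.46 times higher in each library (12.6 to 18.8 times with the principal transcripts' lengths). The exons of Tomm40l overlap those of Nr1i3 (1 to 1.23 CPM) on the other strand over 3304 of 5135 bases. The strand setting is not given, so reads from those bases may be missing from the count of Tomm40l. The ratios of Tomm40 to Tomm40l may then be too high. Tomm20l, a Tomm20 relative, had only 6, 18 and 3 counts in KO and 11, 1 and 5 counts in WT. Tomm20 thus supplied nearly all of the transcripts of this pair in both genotypes.

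TIM23, the presequence channel of the inner membrane, is formed by Timm23 and Timm17 with the receptor Timm50 and the TOM-linking subunit Timm21. Timm23 had 133, 85.2 and 77.6 CPM in KO and 114, 103 and 106 CPM in WT. KO replicate 1 was above every WT library and KO replicates 2 and 3 were below all of them, so the KO libraries spread wider (coefficient of variation 30.2%) than the WT libraries (4.94%). The log2 fold change was -0.13 (SE 0.21). It was -0.40 without KO replicate 1, with an unadjusted p of 0.0224 that made Timm23 the only member under 0.05 in that fit (4.1% of all genes were), and 0.015 without KO replicate 3. Reads of Timm23 are undercounted to an unknown degree, because 1121 bases of its transcript are 99.9% identical to Gm10273 and reads that align to both are not counted.

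The Timm17 paralogs differed in level and in spread. Timm17a had 212, 202 and 210 CPM in KO and 185, 230 and 220 CPM in WT (log2 fold change -0.03, SE 0.13). Timm17b, on the X chromosome, had 48.7, 25.2 and 33.3 CPM in KO and 42.1, 29.4 and 39.1 CPM in WT (-0.04, SE 0.28). The part of the sex-linked difference between libraries in the values of the X-linked members Timm17b and Timm8a1 was not tested. Per exon length Timm17a was 1.41 to 2.6 times Timm17b, with the highest ratios in KO replicate 2 and the library labelled WT replicate 2. The ratio is uncertain, since 516 bases of Timm17a are 96.3% identical to the pseudogene Gm7180. Timm50 and Timm21 had log2 fold changes of 0.01 and -0.08.

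The motor pulls precursors into the matrix: Hspa9 encodes mortalin, Timm44 tethers it to the channel, Dnajc19 and Pam16 regulate its ATPase, and Grpel1 and Grpel2 exchange its nucleotide. Its 7 members had log2 fold changes of -0.10 to 0.02. Hspa9 had 450, 369 and 412 CPM in KO and 441, 425 and 374 CPM in WT (-0.01, SE 0.14), and the libraries of both genotypes lay in the same range. Grpel1 had 116, 84.8 and 91.4 CPM in KO and 98.7, 99.3 and 114 CPM in WT (-0.10, SE 0.16), again with the highest value in KO replicate 1 and the lowest in KO replicate 2.

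Grpel2, the paralog of Grpel1, had 59.3, 62.5 and 40.6 CPM in KO and 52.9, 60.7 and 47.5 CPM in WT (0.01, SE 0.21). Grpel1 exceeded it per exon length by 2.6 to 4.6 times, or by 1.55 to 2.75 times with the principal transcripts' lengths. This ratio is uncertain, since 677 bases of Grpel2 are 97.8% identical to the pseudogene Gm5587. Pam16 had 18.9, 16.1 and 14.4 CPM in KO and 15.9, 20.5 and 16.1 CPM in WT (-0.09). A stretch of 534 bases is identical to the gene Gm9803 (2.12 to 3.26 CPM), so Pam16 is undercounted. Dnaja3, a matrix J-protein that works with mortalin, had a log2 fold change of -0.03 (SE 0.14), Dnajc19 0.02 and Timm44 -0.04.

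The TIM22 translocase inserts carrier proteins into the inner membrane, with Timm22 as its channel and Timm29 as a metazoan subunit. Timm29 (chr9:21592722-21595970, plus strand, GRCm38) had 100, 97.4 and 104 CPM in KO and 110, 112 and 112 CPM in WT. It was the only one of the 37 tested members whose genotypes did not overlap, where 6.55% of all genes tested were so separated (3.12% with KO below, as here), so 1 in 37 is no more than the background. The gap was small, with a log2 fold change of -0.14 (SE 0.11, interval -0.41 to 0.12, unadjusted p 0.231, adjusted p 1, edgeR), and the exact two-sided permutation test gave p = 0.1, the smallest that 3 against 3 libraries allow. Its value ranged from -0.17 to -0.14 with any library left out, the library labelled WT replicate 2 included.

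Timm22 varied far more, at 66.8, 38.4 and 52.4 CPM in KO and 66.1, 41.9 and 74.6 CPM in WT (-0.21, SE 0.28). The lowest libraries were KO replicate 2 and the library labelled WT replicate 2. The value was -0.42 without KO replicate 1 and -0.04 without WT replicate 3.

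The small TIM chaperones escort hydrophobic precursors across the intermembrane space. Timm8b, of the TIM8 type, had 42.3, 38.7 and 32.9 CPM in KO and 43.3, 38.3 and 51.0 CPM in WT (log2 fold change -0.22, SE 0.18, and -0.11 without WT replicate 3). Per exon length it stood at 73.3 ± 9.17 RPKM in KO and 85.3 ± 12.3 RPKM in WT (SD, n = 3 each), and over all libraries it averaged 79.3 RPKM beside 76 for Timm13, whose order is the other way with the principal transcripts' lengths (79.3 and 85). Timm9 and Timm10, which form the other chaperone ring, had -0.15 and -0.12, and Timm13 and Timm10b had 0.05 and 0.02.

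Timm8a1, the mouse counterpart of the gene mutated in human deafness-dystonia syndrome, had 14.5, 8.54 and 7.08 CPM in KO and 10.2, 9.96 and 8.38 CPM in WT. The highest library was KO replicate 1 and the lowest KO replicate 3 (0.08, SE 0.33, and -0.28 without KO replicate 1). This X-linked gene shares 612 identical bases with Gm9797. Its relative Timm8a2 was listed at 0 counts in all KO libraries and in WT replicate 1 and the library labelled WT replicate 2, and at 8 counts in WT replicate 3, so no fold change is given.

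**Figure D3:**
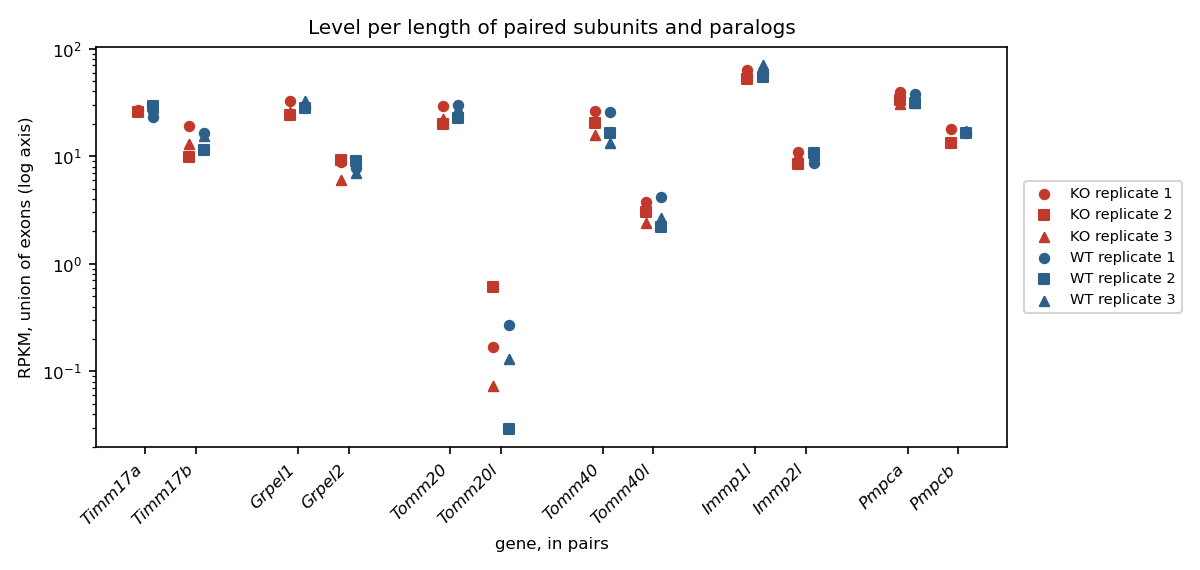
Level per exon length (RPKM, log axis) of 6 pairs of paralogs or partner subunits in each KO library (red, left) and WT library (blue, right). Tomm20 lies far above Tomm20l, and Pmpca lies above Pmpcb only on this length scale.

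The processing peptidases cut imported precursors. Pmpca and Pmpcb are the subunits of the matrix processing peptidase, which removes most presequences, that of OPA1 included. Pmpca had 169, 143 and 132 CPM in KO and 161, 134 and 135 CPM in WT (log2 fold change 0.05, SE 0.15). Pmpcb had 93.1, 68.5 and 70.4 CPM in KO and 85.5, 84.4 and 87.4 CPM in WT (-0.15, SE 0.16). The WT libraries of Pmpcb lay close together, and the KO libraries lay on both sides of them. The subunits' ratio per length cannot be ranked, since Pmpca was 1.85 to 2.5 times Pmpcb with the union of exons but 0.793 to 1.07 times with the principal transcripts.

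Immp1l and Immp2l form the inner membrane peptidase, which cuts proteins sorted to the intermembrane space. Immp1l had 59.9, 50.4 and 53.5 CPM in KO and 56.2, 52.7 and 67.0 CPM in WT (-0.10), and Immp2l had 19.9, 15.7 and 18.7 CPM in KO and 16, 19.7 and 18.7 CPM in WT (0.00). Immp1l exceeded Immp2l per exon length by 5.14 to 6.86 times, or by 3.22 to 4.3 times with the principal transcripts. This ratio is uncertain, since 499 of the 955 exon bases of Immp1l are 99% identical to the pseudogene Gm8121 (0.651 to 2.13 CPM in KO and 1.27 to 2.77 CPM in WT). Mipep, the intermediate peptidase of the matrix, was among the lowest tested members, at 16.3, 16.7 and 13.5 CPM in KO and 22.9, 19.8 and 9.74 CPM in WT. Its WT libraries spanned the KO range on both sides (-0.17, SE 0.34, and 0.07 without WT replicate 1).

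The disulfide relay of the intermembrane space consists of the oxidoreductase Chchd4 (MIA40) and the sulfhydryl oxidase Gfer, which reoxidises it. Chchd4 had 57.4, 38.8 and 59.2 CPM in KO and 60.0, 45.9 and 74.5 CPM in WT (-0.22, SE 0.24, and -0.03 without WT replicate 3). Gfer had 31.4, 18.1 and 15.3 CPM in KO and 31.4, 24.2 and 20.5 CPM in WT (-0.23, SE 0.32, and -0.60 without KO replicate 1 or -0.04 without KO replicate 3). A stretch of 573 bases of Gfer is 99.8% identical to a transcript of Dst, which was at 111 to 140 CPM in KO and 108 to 165 CPM in WT, so the count of Gfer is uncertain. The ranges of the genotypes overlapped for both genes. Timmdc1, a TIM17 family protein that assembles complex I and is not an import channel, had 15.7, 15.1 and 15.3 CPM in KO and 15.8, 15.4 and 19.3 CPM in WT (-0.13, SE 0.20), with WT replicate 3 apart from the other 5 libraries.

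The libraries differed from one another across the whole family. The mean log2 CPM of the 37 tested members was 6.08, 5.76 and 5.72 in KO and 6.04, 5.84 and 5.91 in WT (within-group SD 0.16). KO replicate 1 and WT replicate 1 were the highest and KO replicates 2 and 3 the lowest. KO replicate 1 held the highest value of 14 members and the lowest of 0, where it was the highest library for 18% and the lowest for 16.5% of all genes tested. KO replicate 2 held the lowest value of 15 members and KO replicate 3 of 13, against 18.3% and 14.4% of all genes.

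**Figure D4:**
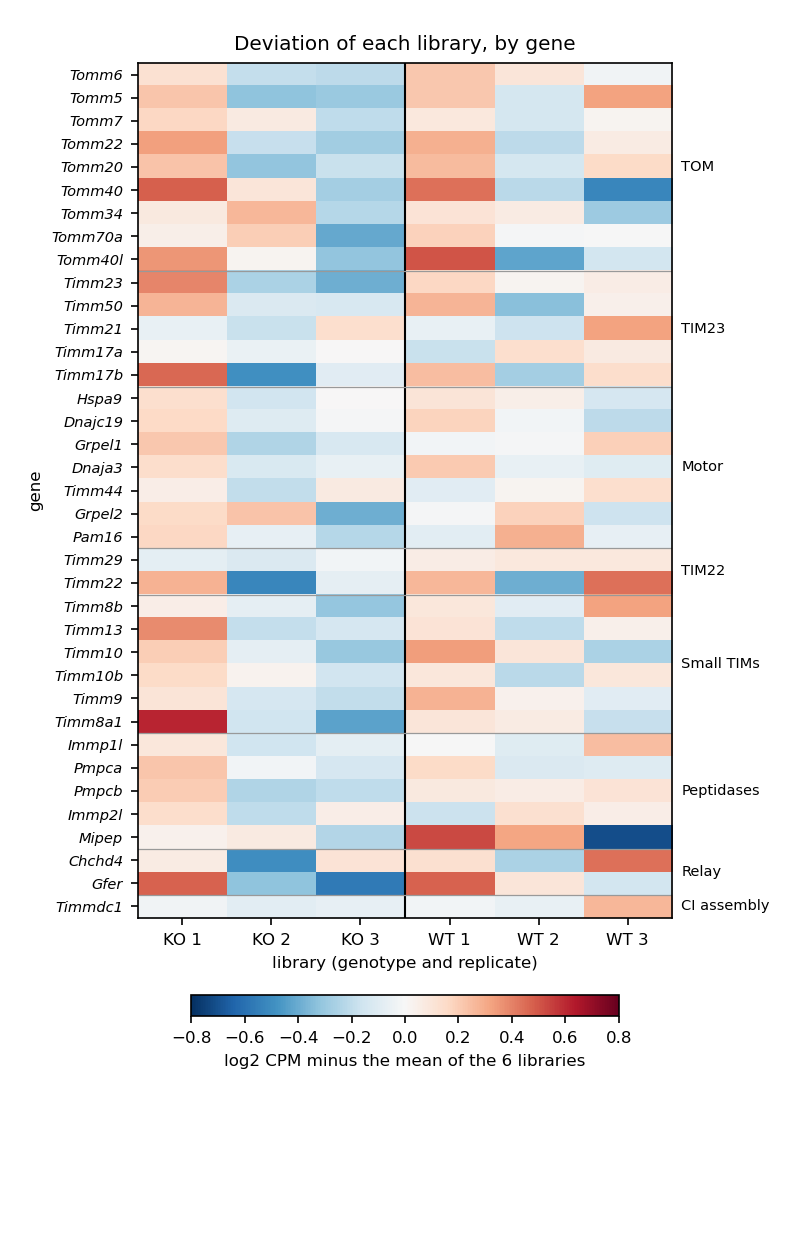
Log2 CPM of each tested import gene in each library minus that gene's mean over the 6 libraries (blue lower, red higher, limits -0.8 and 0.8), with KO left of WT. The columns of KO replicate 1 and WT replicate 1 are mostly red and those of KO replicates 2 and 3 mostly blue.

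Negative fold changes outnumbered positive ones with any 1 library left out, but their number varied. Without KO replicate 1, 36 of the 37 members were negative, Tomm34, a cytosolic cochaperone, being the exception, with a median of -0.16 against -0.01 for all genes. Without KO replicate 3 the count was 22 negative and 15 positive (median -0.01), and without WT replicate 1 it was 20 and 17 (median -0.04). Without KO replicate 2 it was 25 negative and 12 positive (median -0.05), without the library labelled WT replicate 2 it was 27 and 10 (median -0.13), and without WT replicate 3 it was 27 and 10 (median -0.07). No member was called in any of these fits. Members with an unadjusted p under 0.05 numbered 0 (3.5% of all genes without WT replicate 1, 3.08% without the library labelled WT replicate 2, 2.34% without WT replicate 3, 1.62% without KO replicate 2 and 2.36% without KO replicate 3) or 1, Timm23, without KO replicate 1. In the other 8 fits the members numbered 0, beside 2.1% of all genes with RLE scaling, 2.11% with upper-quartile scaling, 2.68% without a filter, 2.66% by DESeq2, 2.49% by limma voom, 1.81% among coding nuclear genes, 2.73% with a replicate block and 2.94% with a cell cycle covariate. Only 12 members kept their sign under all 14 alternatives, all 12 negative: Tomm5, Tomm6, Tomm20, Timm8b, Timm9, Timm22, Timm29, Grpel1, Pmpcb, Chchd4, Gfer and Timmdc1.

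Cell cycle genes moved in part with the family: their mean log2 CPM was 5.72, 2.23 and 2.19 in KO and 4.79, 1.47 and 4.68 in WT. The library labelled WT replicate 2 was the lowest in them but lay above KO replicates 2 and 3 in import genes. KO replicate 1 and WT replicates 1 and 3, the libraries highest in cell cycle genes, were also the 3 highest in import genes. WT replicate 3 was so only narrowly, at 5.91 beside 5.84 in the library labelled WT replicate 2. Of the 26 listed cell cycle genes, Bub1, Aurkb and Kif11 were at 0 counts in at least 1 library. With the cell cycle mean as a covariate the members' median was -0.06 and 0 members were called. Immediate early genes, which rise during cell isolation, were lowest in KO replicate 1 and WT replicates 1 and 3. Their mean log2 CPM was 8.16, 10.05 and 9.84 in KO and 8.30, 9.63 and 6.68 in WT. All 12 had positive log2 fold changes (median 0.77), where 51% of all genes were positive. Of these 12, 0 had an unadjusted p under 0.05 by edgeR (2.09% of all genes). The part of either in the result was not tested beyond that covariate, and in bulk samples fewer cells of a kind and less RNA per cell cannot be told apart.

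**Figure D5:**
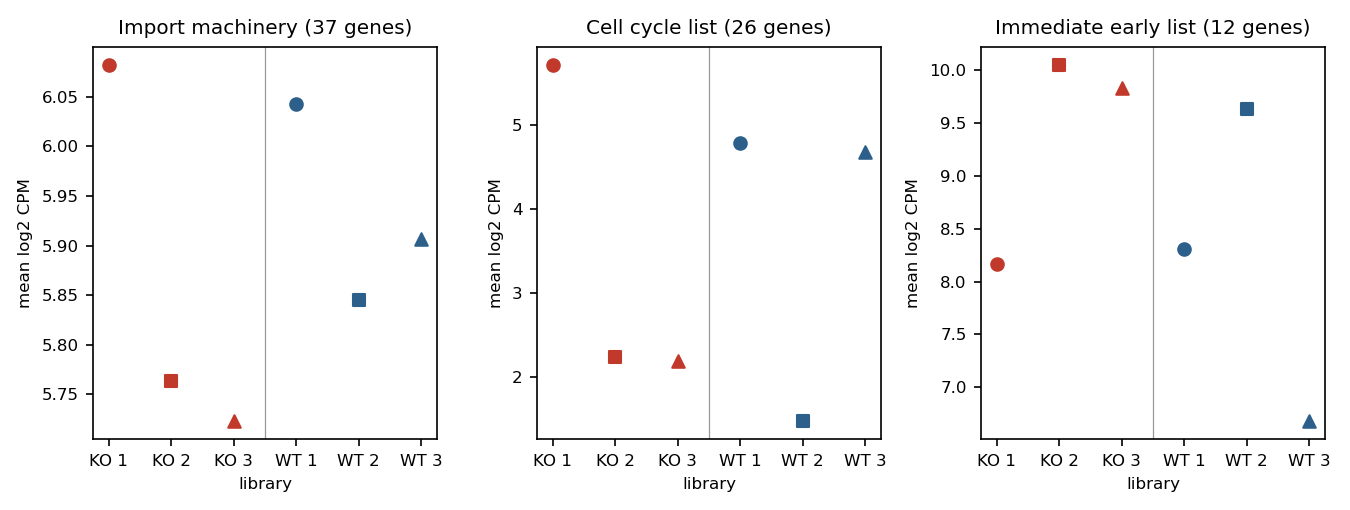
Mean log2 CPM per library of the 37 tested import genes, the 26 cell cycle genes and the 12 immediate early genes, KO left of WT, each panel with its own axis. KO replicate 1 and WT replicates 1 and 3 are high in the second panel and low in the third. In the first panel KO replicate 1 and WT replicate 1 are highest. WT replicate 3 (5.91) lies close to the library labelled WT replicate 2 (5.84) there.

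Markers of other cell types varied between libraries as well. The 8 endothelial markers summed to 101 to 167 CPM in KO and 107 to 177 CPM in WT. Tek alone held 77.8 to 98.1 CPM of this in KO and 97.2 to 109 CPM in WT. Averaged as log2 CPM, the same 8 genes ran from 1.98 to 3.50 in KO and from 0.40 to 3.61 in WT. The 8 mature fibre markers summed to 181 to 433 CPM in KO and 159 to 584 CPM in WT. The 8 fibro-adipogenic markers summed to 739 to 926 CPM in KO and 900 to 1356 CPM in WT. Most of this was Dpt, at 600 to 792 CPM in KO and 763 to 1200 CPM in WT. Log2 fold changes of the fibro-adipogenic genes were positive for 4 and negative for 4, with a median of 0.02. Smooth muscle and pericyte markers summed to 1701, 1425 and 1234 CPM in KO and 1950, 1268 and 1065 CPM in WT, and erythroid genes to 257, 33 and 214 CPM in KO and 422, 99.1 and 198 CPM in WT. Both sums were highest in KO replicate 1 and WT replicate 1 within their genotypes, as the import genes were. The mean log2 CPM of the smooth muscle and pericyte list did not follow this order. It was 5.30, 6.16 and 5.99 in KO and 5.88, 6.35 and 5.21 in WT. KO replicate 1 was the lowest library for 4 of these 8 genes and the highest for 1. Most of the sum came from Acta2, Des and Notch3. Acta2 was at 260 to 740 CPM in KO and 313 to 981 CPM in WT. Des was at 505 to 684 CPM in KO and 317 to 664 CPM in WT. Notch3 was at 211 to 297 CPM in KO and 146 to 198 CPM in WT, with every KO library above every WT library, as for 3.43% of all genes. Schwann cell markers summed to 44.2 to 134 CPM in KO and 15 to 134 CPM in WT. Of 8 leukocyte markers, 3 passed the filter and summed to 5.44 to 15.7 CPM in KO and 6.20 to 15.5 CPM in WT. Their part in the result was not tested.

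Of 18 other import and insertion genes, 0 were called by edgeR, 8 were positive and 10 negative, and 1 had an unadjusted p under 0.05, higher in KO (1.08% of all genes). That was Xpnpep3, a matrix aminopeptidase that trims imported proteins, with 40, 42.1 and 38.2 CPM in KO and 31.8, 27.6 and 32.7 CPM in WT (log2 fold change 0.39, SE 0.15, unadjusted p 0.0386). Every KO library lay above every WT library, as for 3.43% of all genes. Mtch1, an outer membrane insertase relative, had 50.7, 50.8 and 36.2 CPM in KO and 55.1, 45.8 and 83.7 CPM in WT (-0.42, SE 0.26), with WT replicate 3 the highest library.

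Substrates of the disulfide relay (18 genes, 4 positive and 14 negative, median -0.12, 0 called and 0 with an unadjusted p under 0.05) were led by Ccs, the copper chaperone of SOD1, at 61.4, 65.2 and 72.0 CPM in KO and 69.7, 80.5 and 82.7 CPM in WT (-0.23, SE 0.14). Chchd2, a twin-cysteine regulator of respiration, had 315, 251 and 265 CPM in KO and 318, 281 and 379 CPM in WT (-0.24, SE 0.16). The ranges overlapped for both. Genes that answer to or clear stalled import (13 genes, 6 positive and 7 negative, median -0.01, 0 called and 0 with an unadjusted p under 0.05) included Atf4, the transcription factor of the integrated stress response, at 114, 142 and 111 CPM in KO and 119, 114 and 90.8 CPM in WT (0.18, SE 0.17), and the ubiquilin Ubqln4 at 106, 100 and 71.6 CPM in KO and 114, 57.9 and 66.7 CPM in WT (0.22, SE 0.29).

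Genes for proteases of the inner membrane that process OPA1 and its partners (5 genes, 1 positive and 4 negative, median -0.04, 0 called and 0 with an unadjusted p under 0.05) were close between the genotypes. Parl, a rhomboid protease, had 87.7, 86.8 and 86.8 CPM in KO and 94.0, 86.1 and 101 CPM in WT (-0.11, SE 0.12). Spg7, a subunit of the matrix-facing AAA protease, had 20.7, 24.0 and 22.5 CPM in KO and 17.9, 22.8 and 29.5 CPM in WT (-0.06, SE 0.23). Yme1l1 and Oma1, which cleave OPA1 itself, had 0.00 and -0.04.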

How the data were processed

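The authors deposited, for each of 6 RNA-seq libraries, raw whole-number counts per gene. According to the submitters' processing notes, reads were handled with STAR 2.6.0c and counted with HTSeq 0.6.1p2 on GRCm38, and cutadapt 2.5, Trim Galore 0.5.0, DESeq2 and edgeR are also listed. The sources used here give neither the annotation release nor the strand setting. Counts of genes that overlap others on either strand, and of near-identical copies, are therefore uncertain. Names and lengths came from GENCODE M21 (49399 of 49652 rows matched by ID without version). The 5 summary rows were left out: reads without a feature were 11.15% to 17.02%, ambiguous ones 1.21% to 1.42% and multiple alignments 14.82% to 24.57%.

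KO was compared with WT in R 4.3.3 by the quasi-likelihood test of edgeR 4.0.16 (robust, TMM, the package's low-count filter, 18832 genes), with Benjamini-Hochberg adjustment over all of them, called under 0.05. Log2 fold changes are KO minus WT (prior count 0.125). SE is the fold change divided by the root of F. CPM uses TMM scaling, and RPKM divides it by the union of exons (alternative, added later: the APPRIS principal transcript). Near-identical transcripts were found with BLAST. Log2 CPM has a prior count of 2. DESeq2 1.42.0, limma 3.58.1 (voom), 2 scalings, no filter, coding nuclear genes, a replicate block, a cell cycle covariate and leaving out each library were alternatives. The fit was checked on simulated counts. Members and lists were chosen with earlier results of these data known. Every member may be named by the rule. Written out per library are, per role, the member with the smallest p and those highest and lowest per length, members whose groups do not overlap and 6 pairs, and 2 genes or more per companion list. Tomm22 was added after its values were seen.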

Additional observations from a re-analysis of the deposited data

How the results depend on the processing

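No member of the import machinery and no companion gene was called in any of the fits with edgeR, limma voom or DESeq2. Over all genes edgeR and limma voom called 0, with each library left out too, and DESeq2 called 24 of 32115. The cause was not tested. With any 1 library left out the members' median lay between -0.16 and -0.01, and 0 to 1 members had an unadjusted p under 0.05. The number of members whose libraries do not overlap was 1 under each of 3 scalings. With principal transcript lengths, chosen after seeing the data, the members' median level was 33.4 RPKM in place of 20.9, and the levels of 14 members were over 1.5 times higher, so levels are ranked only where both lengths do so. With upper-quartile scaling 7 members were positive and 30 negative. Same-numbered libraries deviated with correlations of 0.24, 0.10 and -0.07. KO replicates 1 and 2 correlated best with the WT library of their own number. KO replicate 3 correlated best with the library labelled WT replicate 2 (0.21). Whether the numbers pair the libraries cannot be told from these values. With the replicate block, 0 genes were called and the members' median was -0.09.

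Signs of values near 0 turned as follows. With upper-quartile scaling Grpel2 was at -0.012, Timm10b at -0.001, Timm50 at -0.013 and Tomm40l at -0.001. Without the filter Dnajc19 was at -0.001, Grpel2 at -0.014, Timm10b at -0.006, Timm50 at -0.019 and Tomm40l at -0.007. Timm50 was at -0.001 by DESeq2 and -0.004 among coding nuclear genes, Grpel2 at -0.018 and Immp2l at 0.010 by limma voom, and Grpel2 at -0.007 with the replicate block. With a library left out, ranges that crossed 0 were -0.12 to 0.069 for Dnaja3, -0.070 to 0.13 for Dnajc19, -0.12 to 0.18 for Grpel2, -0.080 to 0.045 for Hspa9, -0.17 to 0.004 for Immp1l, -0.084 to 0.074 for Immp2l, -0.46 to 0.073 for Mipep, -0.20 to 0.035 for Pam16, -0.060 to 0.14 for Pmpca, -0.26 to 0.025 for Timm10, -0.076 to 0.096 for Timm10b, -0.15 to 0.13 for Timm13, -0.12 to 0.037 for Timm17a, -0.33 to 0.13 for Timm17b, -0.17 to 0.081 for Timm21, -0.40 to 0.015 for Timm23, -0.097 to 0.023 for Timm44, -0.14 to 0.16 for Timm50, -0.28 to 0.27 for Timm8a1, -0.29 to 0.046 for Tomm22, -0.061 to 0.20 for Tomm34, -0.032 to 0.49 for Tomm40, -0.16 to 0.33 for Tomm40l, -0.049 to 0.13 for Tomm7 and -0.24 to 0.061 for Tomm70a. The other 12 members stayed negative but moved too, with ranges of -0.45 to -0.16 for Tomm5, -0.30 to -0.12 for Tomm6, -0.34 to -0.081 for Tomm20, -0.31 to -0.11 for Timm8b, -0.25 to -0.041 for Timm9, -0.42 to -0.040 for Timm22, -0.17 to -0.14 for Timm29, -0.24 to -0.025 for Grpel1, -0.30 to -0.088 for Pmpcb, -0.38 to -0.032 for Chchd4, -0.60 to -0.035 for Gfer and -0.19 to -0.024 for Timmdc1. The cause was not tested.

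Tomm20l and Timm8a2 have too few counts to compare at this depth.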
